A study of Homo sapiens with 11 samples.

Results

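The replication-dependent histone genes were taken as the RefSeq GRCh38 protein-coding genes whose symbols are H1-1 to H1-6 or begin with H2AC, H2BC, H3C or H4C followed by a number. The rule found 69 of 20037 coding genes: 6 for linker histone H1, 17 for H2A, 18 for H2B, 13 for H3 and 15 for H4. Of these, 55 lay on chromosome 6 (chr6:25726063-27893891), 11 in a first group on chromosome 1 (chr1:149782689-149887965) and 2 in another (chr1:228457364-228458558), while H4C16 stood alone on chromosome 12 (chr12:14770720-14771131). Each gene was examined as a window, the gene body with 1 kb on either side, for ChIP-seq peaks. The genes are short, with a median length of 494 bp against 24115 bp for all coding genes, so the median window was 2494 bp against 26115 bp. Since the genes are packed closely, the windows merged into 39 intervals, and 52 members shared an interval with another member. Members are therefore not independent of each other.

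The cells were 92-1, a cell line from a uveal melanoma, which is a tumour of the pigment cells of the eye. For 4 h they received DMSO alone or FHT-1015, which inhibits SMARCA4 and SMARCA2, the alternative ATPase motors of the BAF nucleosome-remodelling complexes. Chromatin was precipitated with antibodies to H3K27ac (an acetyl mark of active promoters and enhancers), SMARCA4 (also called BRG1), MITF, TFAP2A (AP-2 in the titles) and SOX10. There was 1 library per antibody and condition, beside a DMSO input library whose data were not analysed here. No comparison below has a replicate or a test, and each difference describes a pair of libraries from a single cell line.

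Replication-dependent histone genes supply the proteins that package newly copied DNA, and they are transcribed mainly in S phase. Their mRNAs lack introns and end in a stem-loop rather than a poly(A) tail. Each histone is encoded by many gene copies, so a cell can use some copies and leave others silent. NPAT, a substrate of cyclin E and CDK2, gathers at these clusters in the histone locus body. HINFP acts on H4 promoters, and the octamer factor OCT1, encoded by POU2F1, acts on H2B promoters.

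The promoters below were chosen in sets. Each of the first 3 sets has a histone gene whose window held peaks of all 5 antibodies. It is set beside copies of the same class that had few or no peaks. The last pair differs in H3K27ac although nearly identical. Each line gives the 150 bases before the annotated start, 5′ to 3′, from RefSeq on GRCh38.p14. In the H2B and H1 promoters capitals mark the octamer core ATTTGCA, the TATA box TATAAA and the CCAAT box, each on either strand. In H4C5 and H4C6 they mark only GTCCG, a part of the HINFP site. In the last pair they mark the 2 bases at which the sequences differ.
H2BC12 (chr6:27146856-27147005, minus strand): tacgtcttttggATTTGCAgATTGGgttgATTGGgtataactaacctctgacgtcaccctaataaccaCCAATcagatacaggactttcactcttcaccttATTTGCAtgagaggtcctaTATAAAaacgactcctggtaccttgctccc
H2BC3 (chr6:26043714-26043863, minus strand): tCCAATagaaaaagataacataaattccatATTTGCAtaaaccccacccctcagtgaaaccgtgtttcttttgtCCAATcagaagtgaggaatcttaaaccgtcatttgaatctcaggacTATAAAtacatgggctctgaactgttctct
H2BC10 (chr6:26272781-26272930, plus strand): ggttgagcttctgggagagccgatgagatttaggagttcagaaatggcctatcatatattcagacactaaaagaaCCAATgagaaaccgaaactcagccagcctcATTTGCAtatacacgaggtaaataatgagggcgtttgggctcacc
H1-2 (chr6:26056471-26056620, minus strand): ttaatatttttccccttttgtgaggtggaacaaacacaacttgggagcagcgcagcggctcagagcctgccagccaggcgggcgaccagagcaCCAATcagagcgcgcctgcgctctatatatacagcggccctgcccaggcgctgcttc
H1-3 (chr6:26234988-26235137, minus strand): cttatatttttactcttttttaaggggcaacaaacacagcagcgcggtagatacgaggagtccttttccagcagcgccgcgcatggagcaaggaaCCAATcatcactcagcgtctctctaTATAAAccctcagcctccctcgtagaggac
H4C5 (chr6:26204460-26204609, plus strand): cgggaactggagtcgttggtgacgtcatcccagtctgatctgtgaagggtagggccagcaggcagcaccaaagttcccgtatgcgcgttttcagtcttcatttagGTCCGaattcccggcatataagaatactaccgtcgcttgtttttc
H4C6 (chr6:26240243-26240392, plus strand): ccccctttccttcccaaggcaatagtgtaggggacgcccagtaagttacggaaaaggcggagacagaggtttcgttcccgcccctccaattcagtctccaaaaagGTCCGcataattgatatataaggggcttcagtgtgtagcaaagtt
H4C11 (chr6:27823942-27824091, plus strand): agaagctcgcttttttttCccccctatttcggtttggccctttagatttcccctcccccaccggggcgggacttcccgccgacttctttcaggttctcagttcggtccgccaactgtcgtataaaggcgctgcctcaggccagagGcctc
H4C12 (chr6:27831561-27831710, minus strand): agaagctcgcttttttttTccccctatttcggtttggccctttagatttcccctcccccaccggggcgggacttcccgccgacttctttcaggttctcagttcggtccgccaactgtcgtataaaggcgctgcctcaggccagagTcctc
The gene windows of H2BC12, H1-2 and H4C5 held peaks of every antibody in both conditions, but their 300-base promoter windows did not. The H2BC12 promoter was under no SMARCA4 peak, and under MITF and TFAP2A peaks in FHT-1015 only. The H1-2 promoter was under no MITF peak, and under a SMARCA4 peak in FHT-1015 only. The H4C5 promoter was under no SMARCA4 peak in DMSO. H2BC3, H2BC10 and H1-3 had no peak in any list, and H4C6 had a single weak SMARCA4 peak in DMSO. H4C11 carried H3K27ac in both conditions, whereas its near-identical copy H4C12, 98% identical over the 250 bases before the start, carried it in FHT-1015 only. How reads that match both copies were placed is not known here, so this difference is uncertain.

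Across the 65 promoter windows of the members in that table, CCAAT occurred in 55 (84.6%), on either strand of the 250 bases before the start, against 32.7% of all 21581 promoters. TATAAA occurred in 43 (66.2%, against 9.08%) and ATTTGCA in 25 (38.5%, against 3.18%). The motifs followed the histone class. CCAAT was in all 6 H1, 16 H2A, 18 H2B and 12 H3 promoters but in 3 of 13 H4 promoters. ATTTGCA was in 14 of 18 H2B and 11 of 16 H2A promoters and in no H1, H3 or H4 promoter. Some H2A and H2B genes start back to back, 194 to 248 bases apart, so their 250 searched bases overlap. A match on either strand there can count for both genes. Both held ATTTGCA in the pairs of H2AC1, H2AC6, H2AC7, H2AC8, H2AC11, H2AC14, H2AC17 and H2AC20, and neither did in the remaining pairs. The motif counts are therefore per gene and not of separate sites. GTCCG was in 12 of 13 H4 promoters, against 28.9% of all promoters. For the precipitated factors, the E-boxes CACGTG and CATGTG (the MITF type) were in 0 of 65 member promoters against 14.4% of all. The SOX letters ACAAAG or ACAATG were in 12 (18.5%, against 17.4%) and the AP-2 letters GCCNNNGGC in 9 (13.8%, against 23.4%). The classical elements were about as frequent at genes with acetylation in their window as at genes without it. A promoter counted as acetylated by its window need not be under a peak itself. H4C15, for example, was counted as acetylated and its identical copy H4C14 was not, although neither promoter was under an H3K27ac peak. Of 42 promoters whose gene carried H3K27ac in DMSO, 85.7% held CCAAT and 66.7% TATAAA. Of the 23 others, 82.6% and 65.2% did, and ATTTGCA was in 35.7% and 43.5%. These are matches of letters and do not locate a binding site.

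Several promoters were copies of each other. H4C14 and H4C15, H3C14 and H3C15, and H2AC18 and H2AC19 were 100% identical within each pair over the compared bases, while the median closest identity between members was 39.9%. These 6 genes lie on chromosome 1 as an inverted repeat, and none of their 300-base promoter windows was under a peak in any list. How reads that match both copies were placed is not given in the sources used here, so peak calls at these genes are uncertain. The same limit applies to H4C11 and H4C12 on chromosome 6, which were 98% identical, and so to the H4C12 calls below. H4C14, H3C14 and H3C15 are among the genes with no peak below, and the part of read placement in that was not tested.

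The narrow lists held between 33268 peaks (SOX10, FHT-1015) and 142667 (TFAP2A, DMSO), and their weakest peaks had a −log10 p just above 2. Relative depth was estimated from the lowest background inferred in a list and the width of its shortest peak. By this estimate the FHT-1015 library had 0.854 of the DMSO library's depth for MITF and 0.918 for SMARCA4. It had 0.960 for TFAP2A, 1.05 for H3K27ac and 1.15 for SOX10. The SOX10 value depends on a scale of 0.8895 applied to the FHT-1015 list alone, where read numbers were solved at 44 of 55 member peaks. The cells carried H3K27ac at 7 of 7 pigment-cell markers in both conditions, 1 of 3 keratinocyte markers (TP63), 0 of 3 T cell markers and 0 of 2 hepatocyte markers. Fold and −log10 p are the authors' values for each peak. They describe and rank peaks within a list, and their sizes are not compared between lists. Where 1 minimum is applied to both lists of an antibody, the counts past it also depend on depth.

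Most histone genes either carried a strong H3K27ac peak in both conditions or had none. In both conditions 42 members (60.9%) had a peak with a −log10 p of at least 10, and 23 (33.3%) had no peak of any strength in either, so 4 members lay in between. All coding genes split in nearly the same way, with 59.2% and 30.7%. In total 44 of 69 windows (63.8%) had a peak in DMSO and 44 in FHT-1015, near the 67.9% and 65.9% of all coding genes over their longer windows. With the −log10 p minimum the count was 42 in each, against 62.1% and 61.5% of all genes. Of the 64 members with a 300-base promoter entry, 36 and 37 were under H3K27ac, beside 56.6% and 58.1% of 15843 coding genes. Most acetylated windows were nearly filled: among the 42 members marked in both, the median covered share was 96.7% in DMSO and 100% in FHT-1015. In each condition 28 windows were covered over 90%. The peaks were broad, with a median width of 1793.5 bp in DMSO and 3006.5 bp in FHT-1015 against 515 and 618 bp in the whole lists, and 17 and 18 of them reached over at least 2 members. They were also high in their lists: the strongest peak of a marked member had a median percentile of 99.0 in DMSO and 98.4 in FHT-1015. Its median −log10 p was 236 in DMSO, against 75.3 for all coding genes with a peak, and 296 against 126 in FHT-1015. With every member peak counted once, the median percentiles were 87.5 and 92.9.

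**Figure D1:**
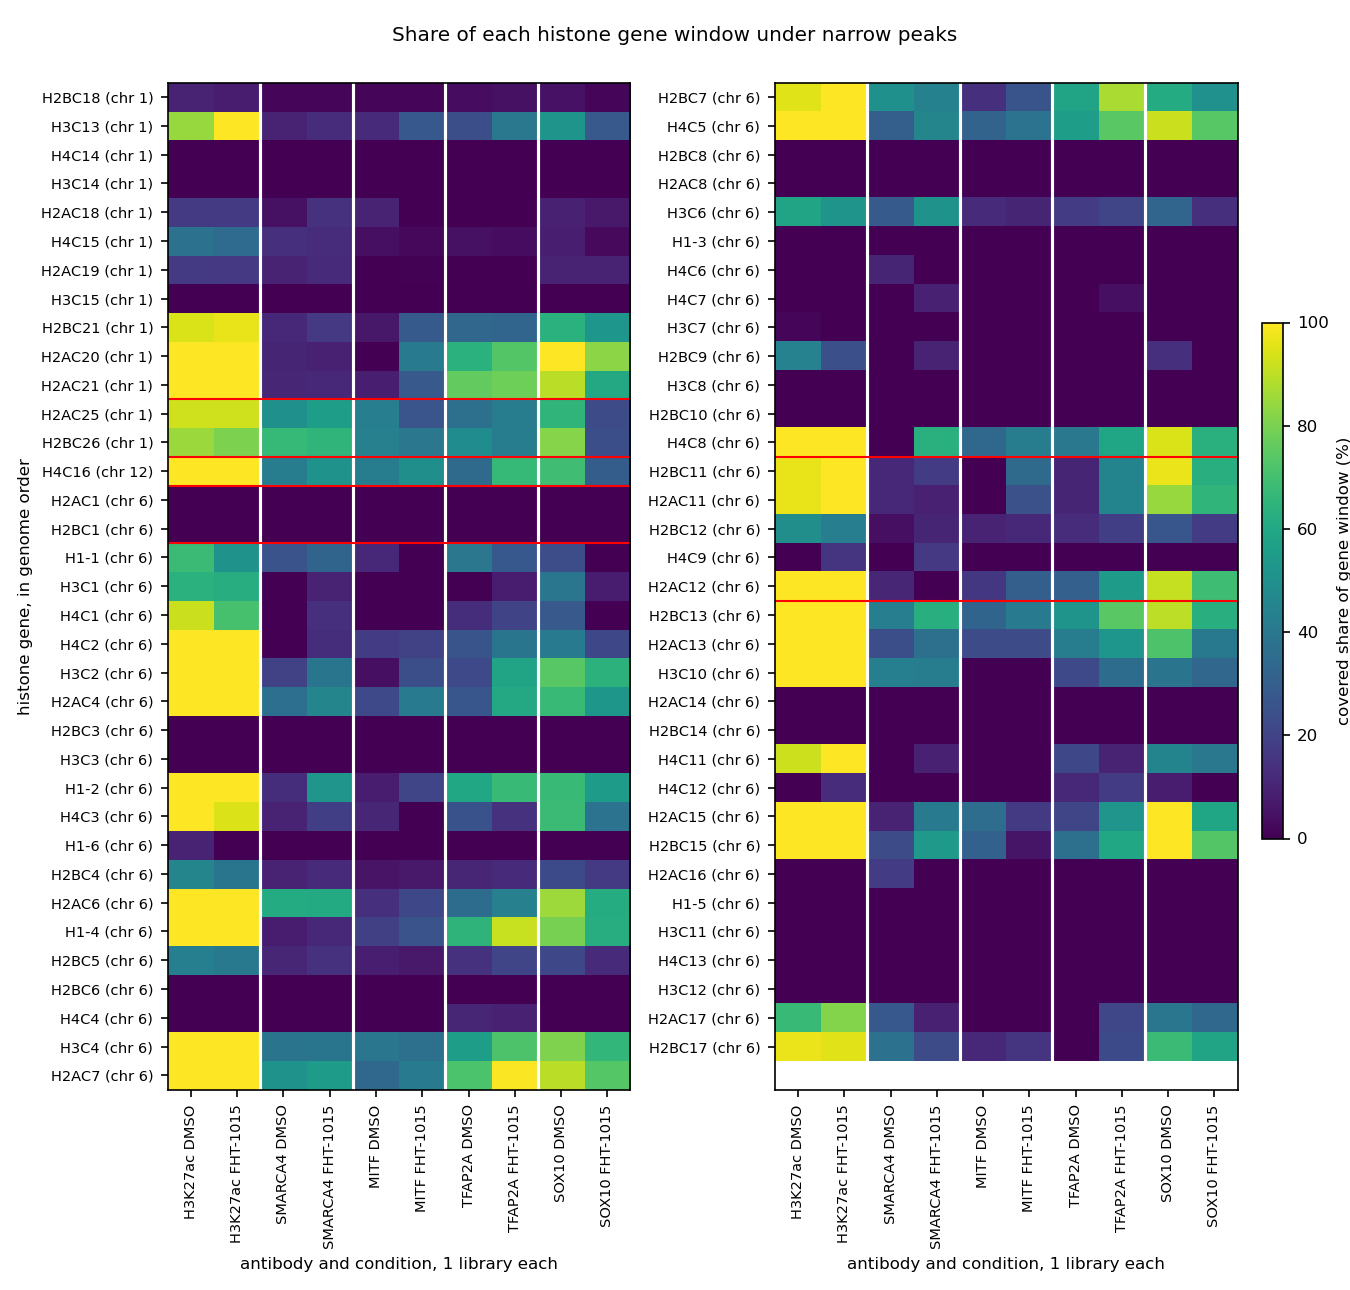
Share of each histone gene window (gene body with 1 kb on either side, %) under narrow peaks, with genes as rows in genome order (red lines separate groups of neighbouring genes) and the 10 libraries as columns. Dark rows such as H2BC3, H2BC8 and H1-3 have 0% in every list. The first columns are bright where H3K27ac filled the window, over 90% at 28 members in each condition. Some of the 42 members with strong H3K27ac peaks in both are dark there, such as H2BC18 (9.42% in DMSO and 8.10% in FHT-1015).

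The 4 intermediate members carried weak peaks. H1-6, the testis H1, had 257 bp under a DMSO peak (−log10 p of 6.43) that lay beyond its 3′ end, and none in FHT-1015. H3C7 had 37 bp in DMSO from a peak (3.10) that lay over its neighbour H2BC9, and none in FHT-1015. H4C9 had 366 bp in FHT-1015 (4.52) and H4C12 300 bp (8.63), and neither had a DMSO peak. So 2 members (4.55% of those marked in DMSO) had no FHT-1015 peak, and 2 (8.00% of those not marked) had one in FHT-1015 alone, beside 5.01% and 4.51% for all genes. At the other end, H2BC12 was under the strongest DMSO peak of any member (294, and 346 in its FHT-1015 list) and H3C6 under the strongest in FHT-1015 (359, and 208 in its DMSO list). H2AC12 lay under the same DMSO peak as H2BC12, and H4C2, H3C2 and H2AC4 lay under the next strongest (274).

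Among the members with a promoter entry, 11 pairs of an H2A and an H2B gene start back to back, 194 to 248 bases apart. In 8 of these 11 both genes were marked in both conditions, and in 3 neither was (H2AC1 with H2BC1, H2AC8 with H2BC8 and H2AC14 with H2BC14). Such pairs share a window, and a peak between them counts for both. Some other unmarked genes also sat side by side, for example H2BC3 with H3C3, H3C8 with H2BC10, and H3C11 with H4C13, whereas the unmarked H3C15 lay between the marked H2AC19 and H2BC21. H2AC1 and H2BC1, the testis-specific pair at chr6:25726063-25727345, had no peak of any antibody.

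The remaining antibodies had most of their member peaks at genes that also carried H3K27ac. Of the 44 members with H3K27ac in DMSO, 36 had a SMARCA4 peak (81.8%), 32 MITF (72.7%), 36 TFAP2A (81.8%) and 42 SOX10 (95.5%). For all coding genes with H3K27ac in DMSO the shares were 91.7%, 88.4%, 98.2% and 98.4%. Of the 25 without, 2 had SMARCA4 (H4C6 and H2AC16), 0 MITF, 2 TFAP2A (H4C4 and H4C12) and 1 SOX10 (H4C12). For all coding genes without H3K27ac in DMSO those shares were 27.7%, 28.1%, 49.3% and 31.8%, over far longer windows. In FHT-1015 the 44 marked members held SMARCA4 at 42 (95.5%), MITF at 33 (75%), TFAP2A at 40 and SOX10 at 40 (90.9% each), beside 95.3%, 87.5%, 98.2% and 75.9% of all marked genes. Of the 25 unmarked ones, 1 had SMARCA4, 0 MITF, 2 TFAP2A and 0 SOX10, beside 34.5%, 35.1%, 51.5% and 14.3% of all unmarked genes. All genes thus showed the same direction, with more peaks at marked than at unmarked genes. Over all 10 lists, 25 members (36.2%) had a peak in every list, beside 40.5% of all coding genes, and 19 (27.5%) had none in any, beside 10.1%. Those with none were H1-3 and H1-5 of H1, H2AC1, H2AC8 and H2AC14 of H2A, and H2BC1, H2BC3, H2BC6, H2BC8, H2BC10 and H2BC14 of H2B. The rest were H3C3, H3C8, H3C11, H3C12, H3C14 and H3C15 of H3, and H4C13 and H4C14 of H4. The members with a peak in every list include H1-2 and H1-4, H2AC4, H2AC6 and H2AC7, H2BC4 and H2BC12, H3C2 and H3C6, and H4C5 and H4C16.

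**Figure D2:**
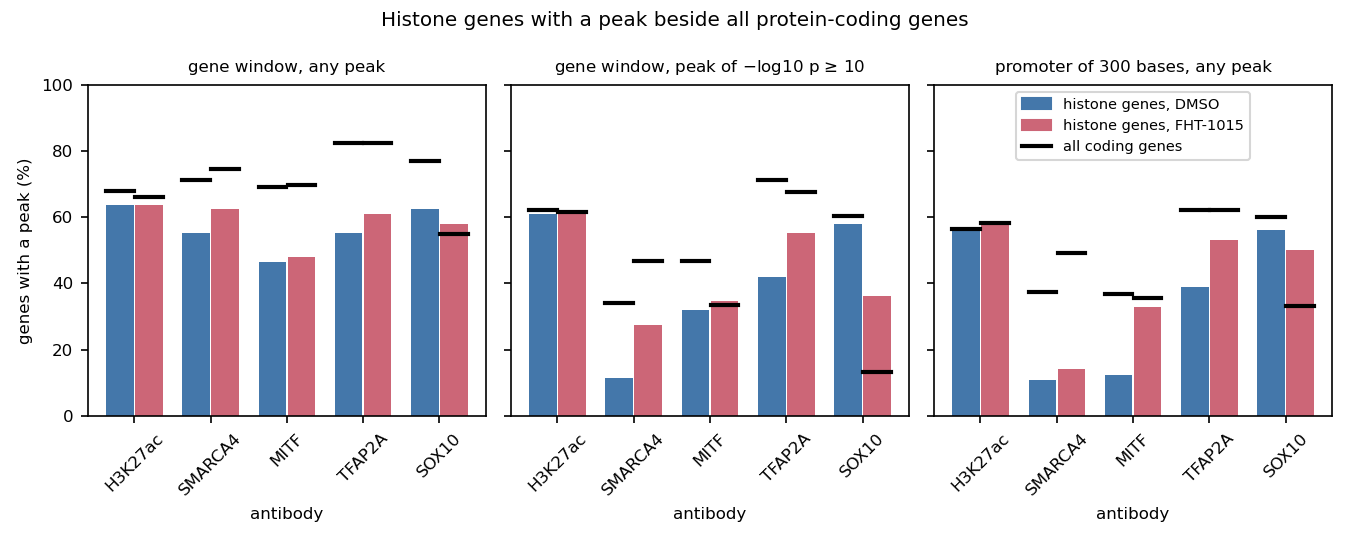
Percent of histone genes with a peak (bars, DMSO blue and FHT-1015 red) and percent of all coding genes (black lines) for each antibody, by gene window, by window with a peak of −log10 p of at least 10, and by 300-base promoter. In the middle panel SOX10 goes from 60.4% to 13.2% of all genes and from 58.0% to 36.2% of histone genes.

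SOX10, the pigment-lineage factor, had peaks at 43 of 69 members in DMSO and 40 in FHT-1015, beside 77.1% and 54.9% of all genes. The 3 members with a DMSO peak alone were H1-1, H2BC9 and H4C12, with −log10 p of 20.7, 4.59 and 4.86, and no member had an FHT-1015 peak alone. That is 6.98% of the members with a DMSO peak, against 30.6% of all such genes, while 6.20% of all genes without a DMSO peak had one in FHT-1015. The peaks that stayed were shorter. Of the 40 members with a peak in both, 39 (97.5%) had fewer bases covered in FHT-1015 and 1 had more, beside 95.5% and 4.45% of all genes. The median ratio of covered length was 0.728 at the members and 0.358 over all genes. Members with a peak of −log10 p of at least 10 numbered 40 in DMSO and 25 in FHT-1015, which is 58.0% and 36.2%, against 60.4% and 13.2% of all genes. With a fold of at least 5 required in both lists, 4 members had a SOX10 peak in FHT-1015, in place of 40.

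By gene, H2BC4 was under the strongest SOX10 member peak in DMSO (150), with 2875 bp of its window covered in DMSO and 2144 bp in FHT-1015. H3C6 came next (129), with 1734 bp in DMSO and 720 bp in FHT-1015, and it was under the strongest member peak of the FHT-1015 list (53.6). H4C8 had 2273 bp and 1527 bp, H4C2 had 971 and 514 bp, and H4C3 had 1644 and 919 bp, in DMSO and FHT-1015. At each of these 5 genes the DMSO library covered more. The largest differences in covered length were at H2BC5 (3326 to 1877 bp), H2BC26 (2007 to 587 bp), H4C15 (1607 to 498 bp), H2BC18 (1578 to 517 bp) and H2AC25 (1645 to 587 bp). H1-4 and H2BC5 shared one of the strongest member peaks of the FHT-1015 list (28.5). H2BC4, H2BC5, H2BC12, H2BC18 and H4C15 have long annotated bodies, so a peak in their windows can lie kilobases from the histone coding part. The H2BC4 body spans 10757 bp and the H4C15 body 16753 bp, which includes H2AC19 and H3C15.

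SOX10 also lay at the starts themselves. Of 64 members with a RefSeq promoter, 36 were under a SOX10 peak in DMSO and 32 in FHT-1015 (56.2% and 50%), beside 60.0% and 33.3% of 15843 coding genes. The strongest SOX10 summit within 1 kb of a start lay a median of 63 bases downstream in DMSO (35 members, 15 with it upstream) and 112 bases in FHT-1015 (36 members, 12 upstream). In DMSO 20 of 35 summits were within 200 bases of the start, of which 3 were upstream, and in FHT-1015 17 of 36, of which 1 was upstream. At H2AC20, for example, the summit was 104 bases downstream in DMSO and 130 in FHT-1015. The same DMSO summit lay 340 bases upstream of H2BC21, which starts back to back with H2AC20. In such pairs 1 summit can count for both genes, downstream of one and upstream of the other. For every antibody these counts and medians are therefore per gene and not of separate summits. At H4C5 the SOX10 summit lay downstream by 109 bases and by 151 bases. For the other antibodies in DMSO, 3 of 27 summits of H3K27ac, 3 of 30 of SMARCA4, 4 of 24 of MITF and 7 of 34 of TFAP2A were within 200 bases. The median position of the TFAP2A summit was nevertheless 74 bases downstream in DMSO and 3 in FHT-1015, with summits on both sides of the start.

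**Figure D3:**
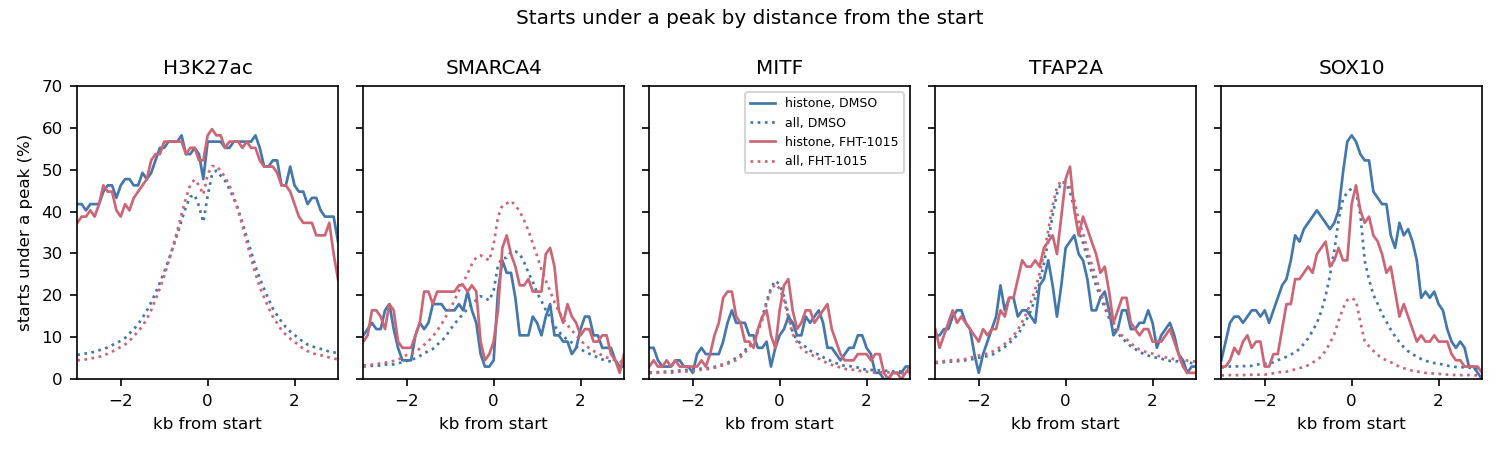
Percent of starts under a peak (y axis) by distance from the start (x axis, kb, negative upstream) for 5 antibodies, with histone genes as solid and all coding genes as dotted lines, DMSO blue and FHT-1015 red. At 1 kb upstream 55.2% of histone starts are under H3K27ac in DMSO against 25.6% of all starts. At the start itself 3 of 67 histone starts (4.48%) are under SMARCA4 in DMSO against 21.1% of all starts.

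SMARCA4, the targeted ATPase, was found at 38 members in DMSO and 43 in FHT-1015, beside 71.1% and 74.6% of all genes. The peaks were mostly weak: 8 members in DMSO and 19 in FHT-1015 had one with a −log10 p of at least 10 (11.6% and 27.5%), against 34.1% and 46.8% of all genes. With a fold of at least 5, 2 and 1 members had one. At promoters the gap was wider, with 7 of 64 in DMSO and 9 in FHT-1015, against 37.5% and 49.2%. At the start itself 4.48% of member starts were covered in DMSO and 8.96% in FHT-1015, against 21.1% and 32.2% of all starts, while 200 bases downstream the member shares were 28.4% and 31.3%, against 28.9% and 41.5%. The strongest SMARCA4 summit within 1 kb had a median position 202 bases downstream in DMSO and 244 in FHT-1015.

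The members with SMARCA4 in FHT-1015 alone were 8, which is 25.8% of the 31 without a DMSO peak, beside 24.9% of all such genes. Of these 8, 6 were H4 genes (H4C1, H4C2, H4C7, H4C8, H4C9 and H4C11), with H3C1 and H2BC9, and the H4 count went from 5 of 15 to 10 of 15. The strongest gained peak of each gene had a −log10 p between 3.81 (H4C7) and 7.36 (1 peak shared by H3C1 and H4C1), so none reached 10. H4C8, which had no SMARCA4 peak in DMSO, had 1533 bp (63.6% of its window) covered in FHT-1015. The members with SMARCA4 in DMSO alone were H4C6 (4.91), H2AC12 (4.80) and H2AC16 (4.42), that is 7.89% of those with a DMSO peak, against 5.25% of all such genes. The members with the strongest peaks were the same in both lists: H2BC4 (28.9 in DMSO and 30.4 in FHT-1015), H3C6 (16.0 and 24.3) and H4C16 (13.04 and 18.2). These H2BC4 peaks had summits more than 1 kb from its start. Within 1 kb of that start the strongest SMARCA4 summit had 4.75 in DMSO and 8.36 in FHT-1015. Of the 35 members with a peak in both, 25 (71.4%) had more bases covered in FHT-1015, beside 67.2% of all such genes. H3C6 went from 1503 to 2726 bp, H1-2 from 360 to 1427 bp, H2BC15 from 578 to 1376 bp and H2AC15 from 249 to 1042 bp.

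MITF, the melanocyte regulator, had peaks at 32 members in DMSO and 33 in FHT-1015, beside 69.1% and 69.6% of all genes. With a −log10 p of at least 10 there were 22 and 24 (31.9% and 34.8%), against 46.6% and 33.6% of all genes. H2AC18, H1-1 and H4C3 had a DMSO peak alone (9.38% of the 32, against 11.4% of all such genes). H2AC19, H2AC20, H2BC11 and H2AC11 had an FHT-1015 peak alone (10.8% of the 37 without a DMSO peak, against 27.4%). The FHT-1015 peak of H2AC19 (21.5) covered 14 bp at the edge of its window and overlapped a DMSO peak (19.9) that ended just outside it. The strongest FHT-1015 peak of H2AC20 (21.1) likewise overlapped a DMSO peak outside its window, and its other 2 peaks overlapped none. The strongest member peak of both lists lay over H2BC12 and H2AC12 (109 in DMSO, 104 in FHT-1015), followed by H3C4 (86.5 and 90.5). These H3C4 peaks had summits more than 1 kb from both of its annotated starts. Within 1 kb of the start that H3C4 shares with H2AC7, the strongest MITF summit had 11.5 in DMSO and 16.1 in FHT-1015. H2AC25 and H2BC26 shared a DMSO peak (58.8) and H2BC13 and H2AC13 an FHT-1015 peak (50.8). At promoters MITF covered 8 of 64 members in DMSO and 21 in FHT-1015 (12.5% and 32.8%), against 36.9% and 35.5% of all promoters. Of the 29 members with a peak in both, 20 (69.0%) had more bases covered in FHT-1015, against 40.2% of all such genes. H2AC20 went from 0 to 1036 bp, H2BC21 from 267 to 1198 bp, H2BC11 from 0 to 853 bp and H2AC11 from 0 to 618 bp, while H2BC15 went from 789 to 146 bp.

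TFAP2A, a neural crest factor, had peaks at 38 members in DMSO and 42 in FHT-1015, beside 82.5% and 82.3% of all genes. Every member with a DMSO peak had one in FHT-1015, whereas 3.88% of all such genes did not. H3C1, H4C7, H2AC17 and H2BC17 had an FHT-1015 peak alone, 12.9% of the 31 without a DMSO peak, beside 17.3% of all such genes. The strongest member peaks in DMSO were at H2BC5 (88.6), H2AC12 (87.4), H1-1 (81.3), and H2BC13 with H2AC13 (81.2). Those of FHT-1015 were at H2AC20 with H2AC21 (88.7), H2BC13 with H2AC13 (80.9) and H2BC21 (79.5). The strongest DMSO peak of H2BC5 had its summit more than 1 kb from its start. Within 1 kb of that start the strongest TFAP2A summit in DMSO had 24.5. Members with a −log10 p of at least 10 went from 29 to 38 (42.0% to 55.1%), against 71.3% and 67.7% of all genes, and promoters from 25 to 34 of 64 (39.1% to 53.1%), against 62.2% in both. Of the 38 members with a peak in both, 31 (81.6%) had more bases covered in FHT-1015, against 49.8% of all such genes, and the median ratio was 1.40 against 0.998. H3C2 went from 552 to 1465 bp, H2AC4 from 673 to 1528 bp, H2BC11 and H2AC11 from 257 to 1121 bp each, and H2BC5 from 2165 to 3171 bp. H1-1 went the other way, from 1088 to 754 bp.

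**Figure D4:**
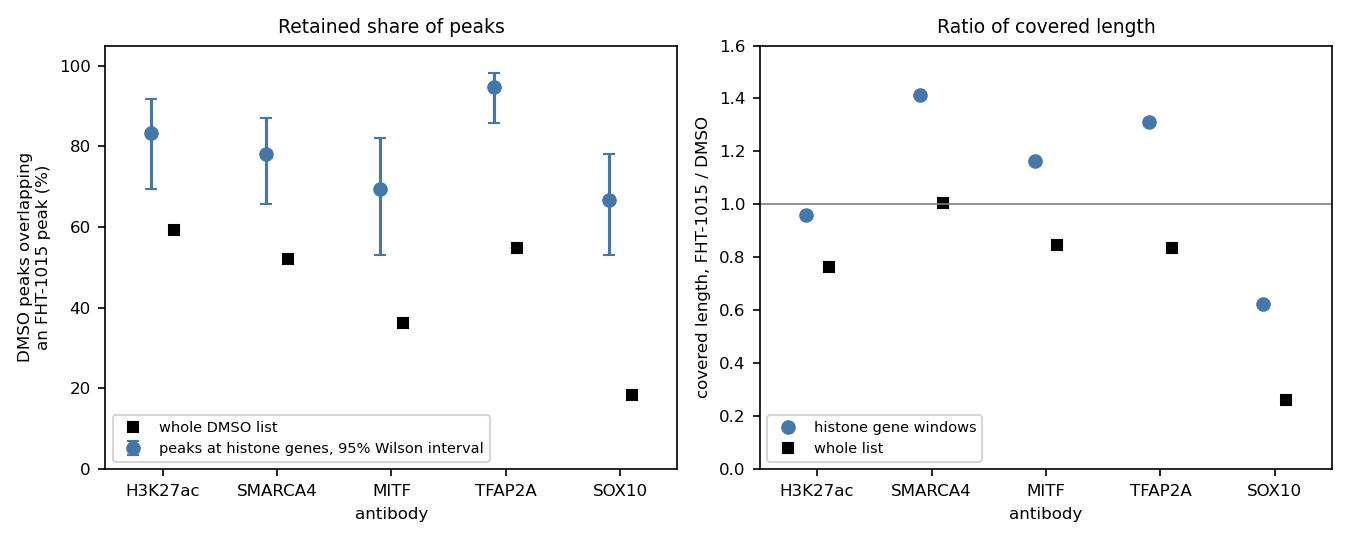
Left, percent of DMSO peaks with an overlapping FHT-1015 peak, for peaks at histone genes (circles, 95% Wilson interval) and the whole list (squares). Right, covered length in FHT-1015 over that in DMSO for the histone gene windows and the whole list; in both panels the circle is above the square for each of the 5 antibodies.

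Counted by peaks rather than genes, the share of DMSO peaks at members that shared at least 1 bp with an FHT-1015 peak was 35 of 42 for H3K27ac (83.3%, 95% Wilson interval 69.4% to 91.7%), and 59.3% in the whole list. It was 43 of 55 for SMARCA4 (78.2%, 65.6% to 87.1%, list 52.0%) and 25 of 36 for MITF (69.4%, 53.1% to 82.0%, list 36.2%). It was 55 of 58 for TFAP2A (94.8%, 85.9% to 98.2%, list 54.9%) and 34 of 51 for SOX10 (66.7%, 53.0% to 78.0%, list 18.3%). The intervals cover counting error only. The histone peaks were stronger and wider than most in some lists: 68.6% of SOX10 DMSO peaks at members had a −log10 p of at least 10, against 38.9% of the list. Among such strong DMSO peaks every one was retained for H3K27ac (32 of 32, list share 87.6%), MITF (16 of 16, 61.7%) and TFAP2A (31 of 31, 71.5%). For SMARCA4 5 of 7 were (list 85.2%), and SOX10 kept 31 of 35 (list 33.0%).

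Set beside peaks at all coding promoters instead of the whole list, the distance shrank for H3K27ac, where 23 of 24 peaks at histone promoters were retained (95.8%) and 97.7% at all promoters. For SMARCA4 the histone share was the smaller, 6 of 8 (75%, interval 40.9% to 92.9%) against 91.7%. For TFAP2A it was 24 of 24 against 93.3%, and for MITF 8 of 8 against 77.7%. SOX10 remained apart, with 23 of 26 retained (88.5%, 71.0% to 96.0%) against 55.2%, and 23 of 24 (95.8%) against 72.3% among strong peaks. Conversely, each of the 55 SOX10 peaks at members in FHT-1015 overlapped a DMSO peak, against 61.5% of that list.

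The union of the member windows was 211878 bp. H3K27ac covered 88706 bp of it in DMSO and 85115 bp in FHT-1015, a ratio of 0.960 where the whole list had 0.764. SMARCA4 went from 21941 to 30975 bp (1.41, list 1.00), MITF from 15236 to 17756 bp (1.17, list 0.847) and TFAP2A from 28528 to 37378 bp (1.31, list 0.835). SOX10 went from 53266 to 33245 bp (0.624, list 0.259). When both lists were limited to peaks with a −log10 p of 10 or more, the member ratio was 3.31 for SMARCA4 and 0.401 for SOX10. H3K27ac and SOX10 were the antibodies with a ratio below 1, and both ratios lay above those of their lists. Beside coding genes with a peak in both conditions, rather than the whole list, members were closer for SMARCA4 and H3K27ac. The median ratio per gene was 1.26 at members and 1.20 over all genes for SMARCA4, and 1.00 and 0.947 for H3K27ac. For MITF it was 1.24 and 0.883.

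The groups of genes did not move alike. On chromosome 6 SMARCA4 covered 15530 bp in DMSO and 24211 bp in FHT-1015 (1.56), whereas in the first chromosome 1 group it covered 3748 and 3726 bp (0.994). TFAP2A had ratios of 1.36 and 1.08 in these groups, and MITF 1.16 and 1.35. For SOX10 the ratios were 0.668 on chromosome 6, 0.511 in the first chromosome 1 group, 0.292 at H2AC25 with H2BC26 and 0.427 at H4C16. H3K27ac had ratios of 0.954, 0.977, 0.957 and 1.00 in these places. Within chromosome 6 the 32 genes at chr6:26017032-26285534 had 21 members with H3K27ac in DMSO and 19 in FHT-1015. The 5 genes at chr6:27132316-27147562 had 4 and 5, and the 16 genes at chr6:27807479-27893891 had 8 and 9. With 1 library each, the differences between groups of genes were not tested.

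**Figure D5:**
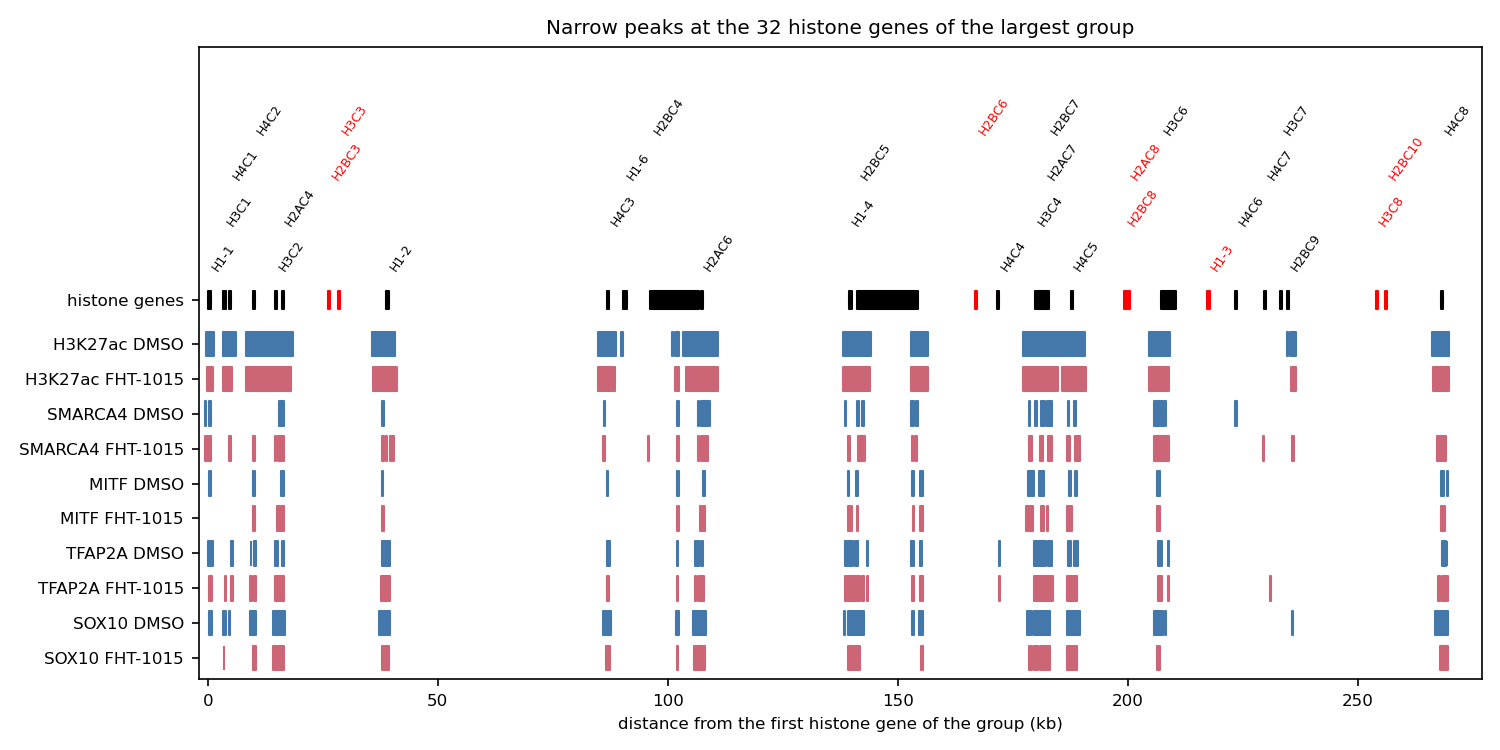
Narrow peaks that touch the windows of the 32 histone genes of the largest chromosome 6 group, with distance from its first gene in kb on the x axis, 1 row per library (DMSO blue, FHT-1015 red) and genes on top, in red where no list had a peak. Peaks of the 5 antibodies stack at the same places, and the 8 genes in red lie between them.

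By histone class, H2A genes had the highest share with H3K27ac, 13 of 17 in each condition, and 12 of 18 H2B genes had it in each. H1 had 4 of 6 in DMSO (H1-1, H1-2, H1-4 and the weak H1-6) and 3 in FHT-1015, H3 had 7 of 13 and 6, and H4 had 8 of 15 and 10. H2A windows were also the fullest with SOX10, at 50.8% of their bases in DMSO and 35.6% in FHT-1015, and H4 windows had 23.5% and 13.2%. For TFAP2A the largest ratio was in H2A (1.58), followed by H3 (1.53), H2B (1.42), H4 (1.26) and H1 (1.13). For SMARCA4 the ratio was 2.06 in H1, 1.71 in H4, 1.40 in H3, 1.28 in H2B and 1.08 in H2A. The H1 value rests on 1274 bp in DMSO and 2622 bp in FHT-1015.

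The 12 replication-independent histone genes, whose expression is not limited to S phase, gave a neighbouring reference. In DMSO 11 of them had H3K27ac, 11 SMARCA4, 7 MITF, 11 TFAP2A and 11 SOX10, and the gene with none of these was H3-5. The DMSO shares of all coding genes were 67.9%, 71.1%, 69.1%, 82.5% and 77.1%. SOX10 was found at 8 in FHT-1015, having been called in DMSO alone at H2AJ, CENPA (the centromeric H3) and H2AZ2. Among 17 genes that act in histone gene transcription and in the processing of the mRNA 3′ end, all 17 had H3K27ac in both conditions. SMARCA4 went from 13 to 17, with peaks in FHT-1015 alone at HINFP, SYMPK, ZNF473 and CSTF2. Of all coding genes without a SMARCA4 peak in DMSO, 24.9% had one in FHT-1015. SOX10 went from 17 to 15, without a peak in FHT-1015 at SLBP, the stem-loop binding protein, and at LSM11. The 21 other coding genes that lie between the first and the last member of a cluster, such as TRIM38 and HFE, had H3K27ac at 17 in DMSO and 16 in FHT-1015. SOX10 was at 17 of these 21 in DMSO and at 8 in FHT-1015, that is, at 9 fewer. FCGR1A and LOC124904411 of these lie inside the annotated body of H2BC18, and without them the counts were 15 and 8 of 19. By comparison, 3 of the 43 histone genes with a SOX10 peak in DMSO had none in FHT-1015, and 30.6% of all such coding genes. Neighbour windows are longer than histone gene windows, and none of these differences was tested.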

How the data were processed

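The authors deposited peak lists, 1 per library: 10 narrow lists, used as the main data, and 4 broad lists (H3K27ac and SMARCA4). The submitters' processing notes name BWA, SAMtools, Picard, MACS2 and hg38, without roles or settings. Per the files' values, the fold of a peak is the authors' ratio over background. The −log10 p and −log10 q were deposited by the authors, as were a score (10 times −log10 p in narrow lists, not used) and the summit offset. Peaks were matched to RefSeq GRCh38.p14 coding genes with 1 kb flanks. A peak counted when it shared at least 1 bp with a window, and a DMSO peak was retained when any FHT-1015 peak of that antibody shared at least 1 bp with it. Covered length is the union of peaks over the union of windows. Genes within 200 kb of each other formed a group, and gaps of up to 2 Mb a cluster.

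Groups came from the sample titles. With 1 library per group no test was possible, and shares have 95% Wilson intervals. Read numbers and background were inferred from the fold and p of each peak under a Poisson model. The read numbers were whole (tolerance 0.002) in at least 99.9% of peaks checked, for SOX10 in FHT-1015 with a scale of 0.8895. Relative depth is the lowest background of a list divided by its shortest peak width, and by that scale where used. The overlap code was tested on simulated data. The members and lists were chosen with earlier results of these data known. The genes named are members with a peak in 1 condition alone, the 5 under the strongest peaks, the 5 with the largest difference in covered length and the testis genes. Non-members come from 3 listed sets. Pairs, promoter retention and the direction of covered length were added after seeing the data. Promoters not found in the RefSeq table were those of H4C1, H4C3, H2AC12, H3C11 and H3C12. Python 3.11.15, numpy 2.4.6 and pandas 2.3.3 were used.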

Additional observations from a re-analysis of the deposited data

How the results depend on the processing

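No paired analysis was possible because each antibody and condition had 1 library. Of 98 alternatives for 20 results, 71 stayed within 1.5 times the count or ratio, or inside the interval of the share, and 27 moved. No ratio of covered length changed direction. Restricting both lists to a −log10 p of 10 or more, members with a peak became 8 and 19 for SMARCA4 (DMSO and FHT-1015) and 25 for SOX10 in FHT-1015. With a fold of at least 5 they became 2 and 1 for SMARCA4, 14 and 20 for MITF, 24 for TFAP2A in DMSO and 4 for SOX10 in FHT-1015. In the RefSeq promoter window they became 7 and 9 for SMARCA4 and 8 for MITF in DMSO. With both lists restricted to a −log10 p of 10 or more, the retained share was 100% for H3K27ac, 57.1% for SMARCA4 (of 7 peaks) and 48.6% for SOX10. With the DMSO list alone restricted it was 100% for H3K27ac, MITF and TFAP2A and 88.6% for SOX10. In lists of equal number it was 94.6% for H3K27ac and 90.6% for SOX10. With summits within 200 bp it was 50% for H3K27ac, 54.5% for SMARCA4 and 70.7% for TFAP2A, and requiring 50% or more of a DMSO peak to be covered gave 52.9% for SOX10. The covered length ratio with a −log10 p of at least 10 was 3.31 for SMARCA4 and 0.401 for SOX10. Stricter settings keep fewer peaks by construction, and the cause of the other shifts was not tested.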
